A study of Mus musculus with 3 samples.

Results

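The genes of cholesterol and fatty acid synthesis that are controlled by sterol regulatory element-binding proteins (SREBPs) were followed in differentiated C2C12 cells, a mouse myoblast line, with and without short hairpin RNAs (shRNAs) against Tead4, a TEAD family transcription factor. Members were chosen by name as known enzymes and regulators of these pathways, and 31 of the 32 listed genes were found among the 20162 genes of the deposited count table. The remaining gene, Hmgcs1, was not analysed here. Of the 31, 17 belong to the sterol branch (6 enzymes up to farnesyl diphosphate, called the mevalonate steps, and 11 from squalene to cholesterol), 1 is a sterol transporter, 5 are regulators and 8 belong to the fatty acid branch.

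The series holds 3 libraries of polyadenylated RNA, 1 from cells with a control shRNA (ShSC) and 1 from each of 2 cell populations with an shRNA against Tead4, named ShA and ShB. The labels do not give the hairpin sequences, and ShA and ShB are treated here as separate shRNAs by their names. All 3 populations carried a lentivirus and puromycin selection, were described as infected populations and not as clones, and were differentiated for 7 days in 2% horse serum after growth in 10% fetal calf serum. No label describes a repeat culture, so the only replication is between the 2 Tead4 shRNA libraries. The p-values set each difference against the spread between those libraries, pooled largely over all genes, and not against a spread between repeat cultures. Every ratio below uses the same single control library, and how far another control culture would differ from it was not measured.

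SREBPs are made as membrane proteins of the endoplasmic reticulum. The escort protein Scap carries them to the Golgi apparatus, where proteases free the transcription factor, and Insig proteins hold Scap back when sterols are plentiful. The protein of Srebf2 is best known for driving genes of cholesterol synthesis, and the main form from Srebf1 for driving genes of fatty acid synthesis. Muscle cells make cholesterol and fatty acids for their growing membranes.

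The libraries held 16412139 (control), 19918954 (ShA) and 15594305 (ShB) counted reads. Levels are given as CPM, the counts of a gene per megaread of its library after TMM scaling (trimmed means of M values). Tead4 itself had 78.2 CPM in the control library, 19.7 with ShA and 10.8 with ShB, a log2 fold change (log2FC) of -2.35 (standard error, SE, 0.27, edgeR adjusted p = 2.82e-06). All 8 myotube markers examined were present in all libraries. All 8 were below control with both shRNAs beyond counting error, beside 21.4% of all tested genes. At an edgeR adjusted p of at most 0.05, 4 of the 8 fell, beside 4.48% of all tested genes. The summed level of the 8 was 24631 CPM in the control library, 14396 with ShA and 17990 with ShB. All 7 markers of dividing cells found in the table rose at that threshold, beside 5.34% of all tested genes. Their summed level went from 34.3 CPM to 155 and 148. Of 8 adipocyte markers only 3 had a row under their symbols, and their summed level was 5.47 to 7.85 CPM, nearly all from Pparg, while Fabp4 had at most 1 read and Cidec at most 3. Of the bone and immune markers, 4 had a row, with summed levels of at most 0.560 CPM (bone) and from 1.56 to 3.36 CPM (immune). The part of these shifts in the results below was not tested. In RNA from whole cultures, fewer cells of a type and less RNA per cell cannot be told apart.

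With Tead4 shRNA, most of the sterol branch was lower: 13 of its 17 genes fell and 0 rose at an adjusted p of at most 0.05 (edgeR quasi-likelihood test, Benjamini-Hochberg adjustment over all 14478 tested genes). By the same test 4.48% of all tested genes fell and 5.34% rose. With other settings 11 sterol enzymes fell with RLE scaling (3.88% of all tested genes fell and 4.32% rose), 11 with upper-quartile scaling (3.56% and 5.15%) and 12 with total counts (4.14% and 6.29%). The count was 15 without the filter on low counts (4.09% and 5.36%), 12 with DESeq2 (2.75% and 3.31%) and 13 with limma-voom (4.69% and 4.76%), with 0 higher each time. Mvd, Tm7sf2 and Lss had the largest falls. The transporter gene Stard4 and the feedback regulator Insig1 fell too, whereas none of the 8 fatty acid genes passed the test in either direction. That made 15 members lower, 0 higher and 16 past the threshold in neither direction. All 31 members passed the filter on low counts.

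The sizes of the differences followed the same order. The median log2 fold change was -1.14 for the mevalonate steps, -0.91 for the steps from squalene to cholesterol, -0.48 for the fatty acid branch and 0.06 for the regulators, beside 0.02 for all tested genes. With ShA alone the medians were -1.14 for the whole sterol branch, -0.44 for the fatty acid branch and 0.22 for the regulators. With ShB alone they were -0.89, -0.45 and -0.15. The sterol median thus lay below the fatty acid median by 0.70 on the log2 scale with ShA and by 0.43 with ShB, and the regulators' median changed sign between the shRNAs. Genes of a branch are not replicates and there is 1 control library, so this difference between branches carries no test.

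**Figure D1:**
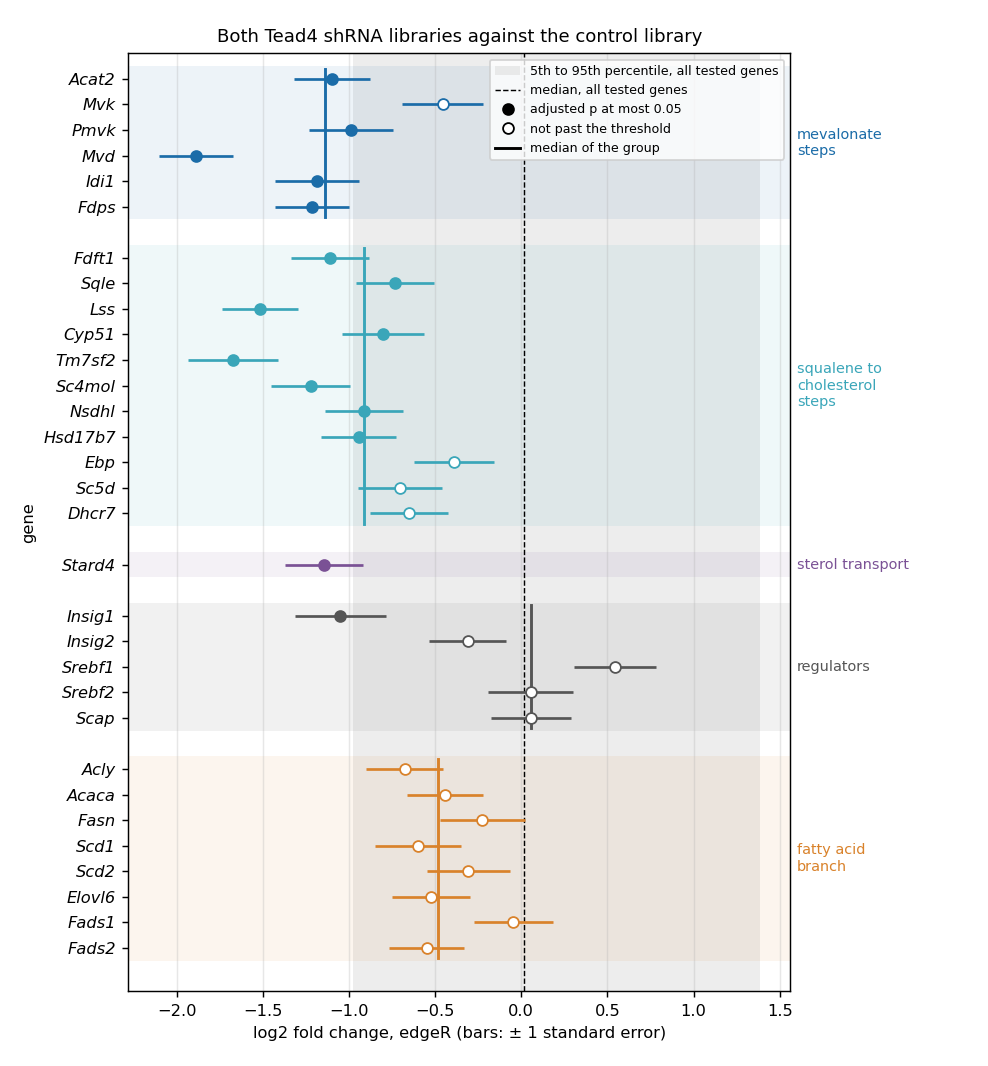
Log2 fold change of each of the 31 genes over both Tead4 shRNA libraries against the control library, with bars of 1 standard error; filled points had an edgeR adjusted p of at most 0.05, coloured lines are group medians, the grey band spans the 5th to 95th percentile of all 14478 tested genes and the dashed line is their median. The 13 filled points of the sterol branch lie from -1.89 to -0.73, and the 8 open points of the fatty acid branch from -0.68 to -0.05.

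In summed reads, the 17 sterol enzymes together had 2217 CPM in the control library, 1035 with ShA and 1306 with ShB, or 46.7% and 58.9% of control. The 8 fatty acid genes together had 6379, 4688 and 5051 CPM, or 73.5% and 79.2%. The 5 regulators together stayed nearer to control, at 94.0% and 88.7%. These sums are led by the most abundant genes, Cyp51 and Sqle in the sterol branch and Scd2 and Scd1 in the fatty acid branch.

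Promoters were examined because the sterol genes moved together. RefSeq promoter sequences (build GRCm38.p6) were found for 23 of the 31 members, 13 of the sterol branch, 5 regulators and 5 of the fatty acid branch. None was found for Sqle, Fdps, Fdft1, Sc4mol, Stard4, Scd1, Scd2 and Fads1. The 250 bases before each annotated start were searched on both strands, and a gene with several starts counted if any start held the letters. The letters CCAAT, the box known to bind NF-Y, a partner of SREBPs, were found in 12 of the 13 sterol genes. They were in 4 of the 5 regulators and 1 of the 5 fatty acid genes (Fasn), beside 37.5% of the 27025 genes with such a sequence. Those 27025 genes were not limited to genes expressed in these cells, whereas all 31 members passed the filter on low counts. The shares of all genes in this paragraph are therefore not shares of like genes. Held by 12 of the 13 sterol genes, the box could not separate the called from the uncalled ones. Acat2, which fell, lacked it. Mvk, Ebp, Sc5d and Dhcr7 held it and were not called, though both library ratios of each were below control. The Sp1 box GGGCGG was found in 12 of the 13 sterol genes, 5 of the 5 regulators and 2 of the 5 fatty acid genes, beside 35.4% of all genes. The core of the sterol regulatory element, searched as TCACNCCAC, was in none of the 23 and in 1.22% of all genes. With 1 mismatch allowed, a search added after that result, it was in 9 of the 23 and in 23.0% of all genes. The TEAD site core CATTCC was in none of the 23 and in 14.4% of all genes. A match of letters is a description and not a binding site, and its absence says only that these letters are not in this window.

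The 180 bases before the start are printed for the 3 sterol enzymes with the largest falls, for Srebf2, and for 2 fatty acid genes without the box (Acly and Fads2). They show where the CCAAT boxes lie, and were chosen after the search. Capitals mark CCAAT on either strand and the letters that match the element with 1 mismatch. Of the 6 stretches, Srebf2 (TCACCCCAT at -162) and Acly (TCAGGCCAC at -158) hold such a match. Positions count back from the start, with -1 for the base before it. The first letter of the box is at -60 and -27 in Mvd (chr8:122443423-122443602, minus strand), -47 in Tm7sf2 (chr19:6067851-6068030, minus strand), -62 in Lss (chr10:76531425-76531604, plus strand) and -135 in Srebf2 (chr15:82147089-82147268, plus strand). Acly is shown from chr11:100528001-100528180 and Fads2 from chr19:10101504-10101683, both on the minus strand.
Mvd: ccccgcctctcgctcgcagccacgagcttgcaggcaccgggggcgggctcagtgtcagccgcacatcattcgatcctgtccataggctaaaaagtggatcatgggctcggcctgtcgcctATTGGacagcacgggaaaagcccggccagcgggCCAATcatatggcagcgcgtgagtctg
Tm7sf2: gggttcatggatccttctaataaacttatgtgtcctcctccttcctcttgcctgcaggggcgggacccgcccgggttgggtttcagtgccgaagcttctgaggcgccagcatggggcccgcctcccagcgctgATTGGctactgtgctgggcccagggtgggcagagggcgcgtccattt
Lss: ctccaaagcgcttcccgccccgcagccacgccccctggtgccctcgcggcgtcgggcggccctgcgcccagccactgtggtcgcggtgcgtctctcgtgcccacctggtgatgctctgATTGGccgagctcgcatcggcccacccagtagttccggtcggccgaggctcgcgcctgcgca
Srebf2: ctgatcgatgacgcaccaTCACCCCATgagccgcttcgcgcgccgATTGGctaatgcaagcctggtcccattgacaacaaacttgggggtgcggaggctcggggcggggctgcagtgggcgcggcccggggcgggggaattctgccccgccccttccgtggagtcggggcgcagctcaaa
Acly: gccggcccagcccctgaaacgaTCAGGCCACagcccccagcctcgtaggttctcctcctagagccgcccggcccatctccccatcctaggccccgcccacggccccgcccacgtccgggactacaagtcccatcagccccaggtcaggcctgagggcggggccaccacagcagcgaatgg
Fads2: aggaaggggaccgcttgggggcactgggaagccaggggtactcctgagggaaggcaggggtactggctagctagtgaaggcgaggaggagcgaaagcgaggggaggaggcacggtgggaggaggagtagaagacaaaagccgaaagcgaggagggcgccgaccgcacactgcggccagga

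Among the mevalonate steps, 5 of 6 enzymes fell. Mvd, the decarboxylase that makes isopentenyl diphosphate, had 106 CPM in the control library, 26.0 with ShA and 31.1 with ShB. Both shRNA libraries were thus at 24.6% and 29.4% of control, and Mvd had the largest fall of all members (log2FC -1.89, SE 0.22, edgeR adjusted p = 3.07e-06). Fdps, which joins these units into farnesyl diphosphate, went from 124 to 49.0 and 57.6 CPM (-1.22, SE 0.21, adjusted p = 5.97e-04). Idi1, the isomerase between them, went from 117 to 39.3 and 63.9 CPM (-1.18, SE 0.24, adjusted p = 0.00253). For Idi1 the shRNAs differed, at 33.6% of control with ShA and 54.6% with ShB.

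Acat2, the thiolase that starts the pathway in the cytosol, had 109 CPM in the control library and 44.2 with ShA and 57.7 with ShB (log2FC -1.10, SE 0.22, adjusted p = 0.00206). Pmvk, the second kinase of the pathway, had 28.1, 13.2 and 15.2 CPM (-0.99, SE 0.24, adjusted p = 0.0107), and with DESeq2 its adjusted p was 0.0935. Mvk, the kinase before it, did not pass the test. It had 31.9 CPM in the control library, 22.3 with ShA and 24.3 with ShB, a log2FC of -0.46 (SE 0.23, adjusted p = 0.270). Both of its library ratios were below control beyond counting error, at -0.52 (95% exact interval -0.71 to -0.33) and -0.39 (-0.59 to -0.20). Such an interval covers the counting of reads in 2 libraries and no difference between cultures.

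From squalene to lanosterol, all 3 enzymes fell. Fdft1, squalene synthase, went from 148 CPM to 58.2 with ShA and 79.5 with ShB (log2FC -1.11, SE 0.23, adjusted p = 0.00240). Sqle, the epoxidase that is a rate-limiting step, had 273, 160 and 168 CPM (-0.73, SE 0.22, adjusted p = 0.0393). Lss, which closes the ring to lanosterol, had 89.0, 34.9 and 27.3 CPM (-1.51, SE 0.22, adjusted p = 8.13e-05). Lss was the only sterol enzyme with a lower level in ShB than in ShA beyond counting error. The fall of Sqle did not pass the threshold under 3 other scalings (adjusted p from 0.0506 to 0.0625).

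From lanosterol to cholesterol, 5 of 8 enzymes fell. Tm7sf2, a sterol reductase, was the least abundant of them and had 30.6 CPM in the control library, 8.15 with ShA and 11.1 with ShB. It stood at 26.7% and 36.3% of control (log2FC -1.67, SE 0.26, adjusted p = 1.77e-04). Sc4mol, now named Msmo1, a sterol methyl oxidase, went from 196 to 70.6 and 97.2 CPM (-1.22, SE 0.23, adjusted p = 0.00112). Its partners in removing the methyl groups at that carbon are Nsdhl and Hsd17b7, and both fell as well. Nsdhl had 146, 66.1 and 89.1 CPM (-0.91, SE 0.23), and Hsd17b7 had 68.6, 34.3 and 37.1 CPM (-0.94, SE 0.22). Cyp51, the demethylase that acts on lanosterol, had 340, 166 and 224 CPM (-0.80, SE 0.24, adjusted p = 0.0342). The call of Cyp51 was lost with RLE scaling (adjusted p = 0.0525) and upper-quartile scaling (adjusted p = 0.0602).

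The 3 enzymes not called in this stretch, Ebp, Sc5d and Dhcr7, act late in the pathway, on the double bonds of the sterol. Sc5d, a desaturase, had 67.8 CPM in the control library, 33.0 with ShA and 50.4 with ShB (log2FC -0.70, SE 0.24, adjusted p = 0.0714). Dhcr7, which makes cholesterol in the last step of 1 route, had 159, 87.4 and 116 CPM (-0.65, SE 0.23, adjusted p = 0.0773). Ebp, an isomerase, had 183, 122 and 157 CPM (-0.39, SE 0.23, adjusted p = 0.357). In all 3 the ShB library lay between the control and the ShA library, as it did in every other sterol enzyme but Lss. Without the filter on low counts, Sc5d and Dhcr7 passed the threshold (adjusted p = 0.0305 and 0.0486).

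Stard4, a carrier of cholesterol between membranes, had 51.8 CPM in the control library, 22.5 with ShA and 24.4 with ShB. It fell to a similar extent in both, at 43.4% and 47.2% of control (log2FC -1.14, SE 0.23, adjusted p = 0.00184).

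**Figure D2:**
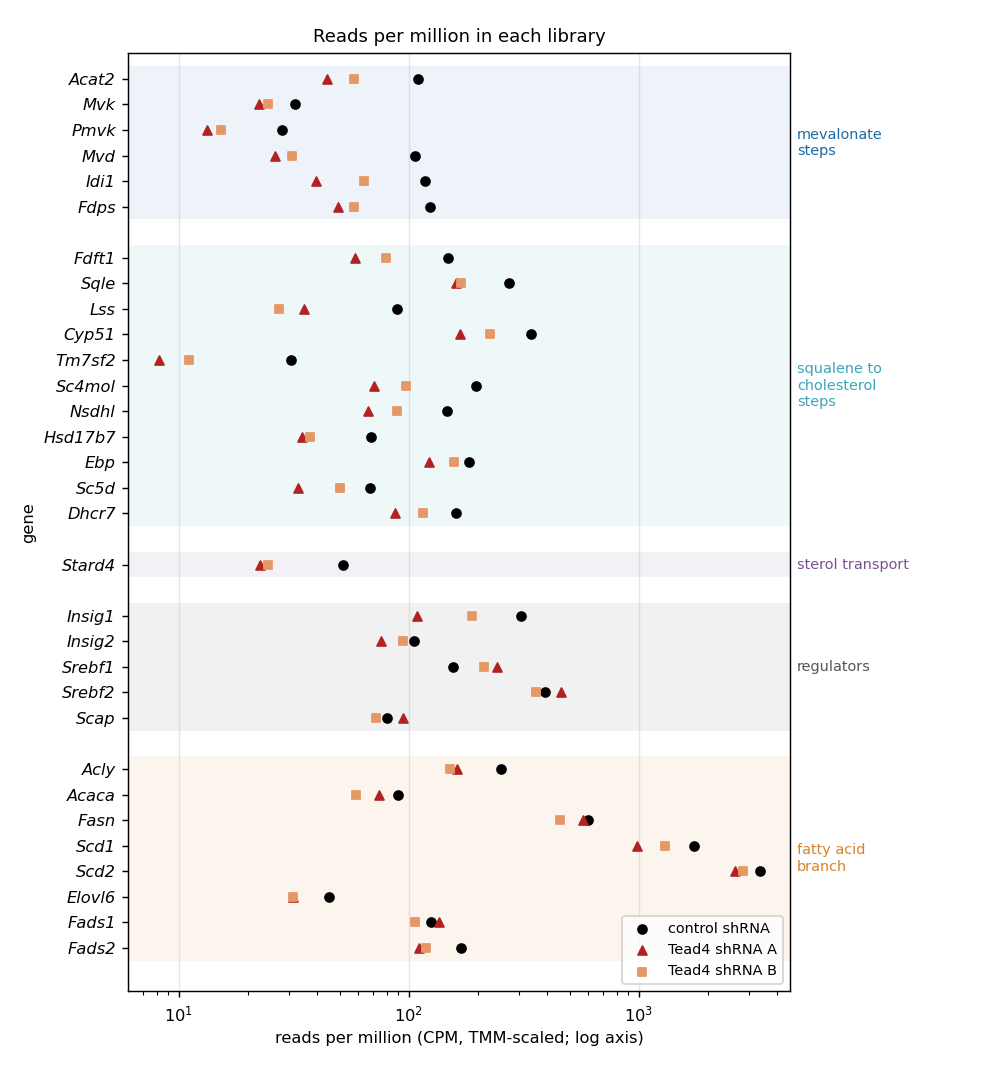
Level of each gene in each library in CPM on a log axis, with the control library as circles and the Tead4 ShA (A) and ShB (B) libraries as triangles and squares. In all 17 sterol enzymes and Stard4 the circle lies to the right of both other points, whereas for Srebf1 it lies to the left of both.

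Regulators did not move as a group. Insig1, which retains Scap and is itself a known SREBP target, had 308 CPM in the control library, 108 with ShA and 189 with ShB. It fell (log2FC -1.05, SE 0.26, adjusted p = 0.0118), and the shRNAs were far apart, at 35.2% and 61.3% of control. Its paralog Insig2 had 105, 75.5 and 93.9 CPM and was not called (-0.31, SE 0.22, adjusted p = 0.472).

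The genes for the transcription factors and their escort were not called. Srebf1 was the member with the highest fold change, at 156 CPM in the control library, 242 with ShA and 211 with ShB (log2FC 0.54, SE 0.24, adjusted p = 0.175). Both ratios of Srebf1 were above control beyond counting error, at 0.64 (95% exact interval 0.57 to 0.71) and 0.44 (0.37 to 0.52), and Srebf1 was the only member with an unadjusted p under 0.05 in the upward direction (p = 0.0323, edgeR). Srebf2 had 392, 458 and 357 CPM, with a log2FC of 0.06 (SE 0.25, adjusted p = 0.938). Scap had 80.1, 94.5 and 72.0 CPM (0.06, SE 0.23, adjusted p = 0.930). For Srebf2 and Scap the control library lay between the shRNA libraries, with ShA above it and ShB below it. The counts do not separate the promoters and isoforms of Srebf1, and read counts of these genes do not measure the cleaved protein.

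In the fatty acid branch the differences were smaller. Acly, which supplies cytosolic acetyl-CoA to both branches, had 250 CPM in the control library, 163 with ShA and 151 with ShB. It came nearest to the threshold (log2FC -0.68, SE 0.22, adjusted p = 0.0599) and passed it without the filter on low counts (adjusted p = 0.0432). Acaca, which commits acetyl-CoA to fatty acids, had 89.9, 73.8 and 58.6 CPM (-0.44, SE 0.22). Fasn, the synthase itself, had 601, 573 and 454 CPM (-0.23, SE 0.25). For Fasn the ShA library was close to control, at 95.4%, and the B library at 75.5%.

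The desaturases and the elongase varied in the same range. Scd1 and Scd2 are paralogs that put the first double bond into saturated fatty acids, and reads that fit both could have been counted for either. Scd1 had 1729 CPM in the control library, 981 with ShA and 1303 with ShB (log2FC -0.60, SE 0.25, adjusted p = 0.151). Scd2 had 3371, 2620.3 and 2828 CPM (-0.31, SE 0.24, adjusted p = 0.524). The elongase Elovl6 had 45.0, 31.2 and 31.3 CPM (-0.52, SE 0.23, adjusted p = 0.172), so that the shRNA libraries were nearly alike. Fads2, which starts the making of polyunsaturated fatty acids, had 168, 111 and 119 CPM (-0.55, SE 0.22, adjusted p = 0.130). Fads1, the next desaturase, had 124, 135 and 106 CPM (-0.05, SE 0.23, adjusted p = 0.945), with ShA above and B below control.

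For the fatty acid branch edgeR called 0 of 8 genes and 4 had an unadjusted p under 0.05 (Acly, Scd1, Elovl6 and Fads2), beside 21.7% of all tested genes, while DESeq2 and limma-voom each called 0. Its 8 genes had SEs of 0.22 to 0.25, and the smallest difference called among the members was that of Sqle, at -0.73. Absence of a call does not show that these genes were equal to control.

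Library by library, 27 of the 31 members were below control with both shRNAs beyond counting error, beside 21.4% of all tested genes. These were all 17 sterol enzymes, Stard4, both Insig genes and 7 of the 8 fatty acid genes. Srebf1 was above control with both (21.7% of tested genes were), and Srebf2, Scap and Fads1 were above with ShA and below with ShB. At most 50% of the control level was reached with both shRNAs by 6 members, beside 3.39% of tested genes. These were Mvd, Fdps, Lss, Tm7sf2, Sc4mol and Stard4.

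**Figure D3:**
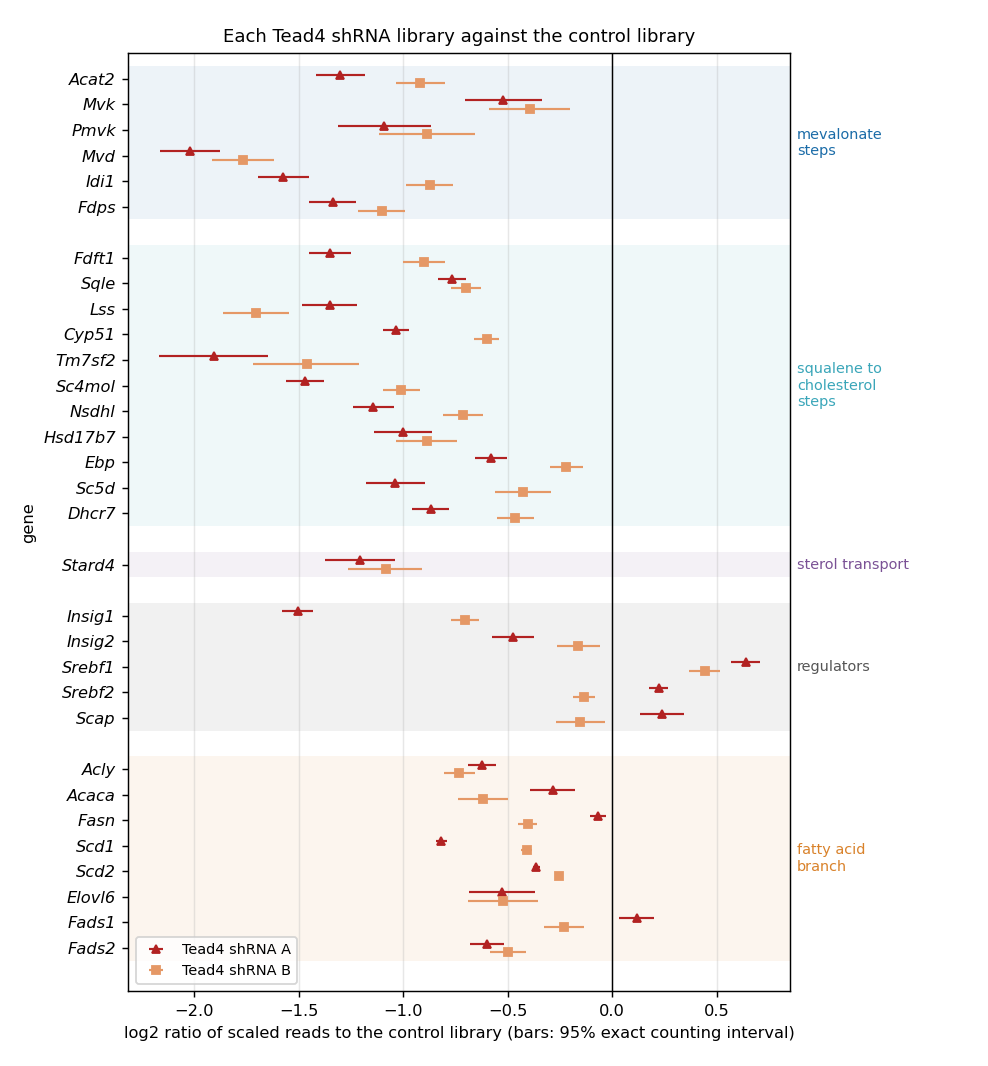
Log2 ratio of scaled reads of the Tead4 ShA library (triangles) and the Tead4 ShB library (squares) to the control library for each gene, with 95% exact counting intervals as bars and a line at no change. Both points of every sterol enzyme lie left of the line, from -2.02 (Mvd with ShA) to -0.22 (Ebp with ShB).

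The shRNAs differed from each other beyond counting error in 25 of the 31 members, beside 50.6% of all tested genes, a comparison of 2 libraries without replicates. In the sterol branch ShB was above ShA in 12 genes and below it in 1 (Lss), and 4 did not differ beyond counting error. In the fatty acid branch ShB was above ShA in 3 genes (Scd1, Scd2 and Fads2) and below it in 4 (Acly, Acaca, Fasn and Fads1). The regulators were split as well, with both Insig genes above and Srebf1, Srebf2 and Scap below. Tead4 was itself lower with ShB, at a log2 ratio of -2.86 against -1.99 with ShA. Of the 13 sterol enzymes that differed, all but 1 thus had the smaller difference from control in the library with less Tead4. The share of all tested genes with ShB above ShA was not counted. With 2 libraries without replicates, the order cannot be related to the level of Tead4. The order was not particular to the sterol enzymes. Among the 8 myotube markers ShB was above ShA in 7 and below it in 1, with median log2 ratios of -1.04 (ShA) and -0.61 (ShB).

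Divided by the length of the longest coding transcript (GENCODE vM21, a later build than the authors used), levels in the control library ran from 7.56 CPM per kilobase for Elovl6 to 618 for Scd2 and 358 for Scd1. Among sterol enzymes Ebp (105), Sqle (98.9) and Sc4mol (95.7) were highest and Sc5d (14.2) lowest. With ShA, Ebp (70.3) and Sqle (58.1) were still highest while Sc4mol was at 34.6. There is 1 control library, so neighbours in this order cannot be told apart by any spread. In that annotation 10 members share exon bases with another gene, and the reads were not separated by strand. The largest shares were 26.7% of Fdps, with Gm43738 (annotated as protein-coding) on the same strand, 18.3% of Fdft1, with Ctsb on the opposite strand, 13.2% of Scap, with 5830462I19Rik on the opposite strand, and 12.1% of Tm7sf2, with Vps51 on the same strand, so their values are less certain.

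Genes around these pathways did not share the fall of the sterol enzymes as lists. Each list had 0 or 1 gene called in each direction, beside 4.48% of all tested genes that fell and 5.34% that rose. Counts this near those shares do not set the lists apart from other genes. Of 12 genes of SREBP processing and turnover, 1 fell and 0 rose (median log2 fold change -0.17). It was Syvn1, a ubiquitin ligase of the endoplasmic reticulum, from 329 CPM to 58.4 and 52.9 (-2.57, SE 0.22, adjusted p = 2.98e-08). The proteases that cleave SREBPs, Mbtps1 and Mbtps2, were not called (0.27, SE 0.24, and -0.29, SE 0.23). Of 13 genes that use isoprenoids, such as protein prenylation enzymes, 1 fell and 0 rose (median 0.01): Rabggta, a subunit of a Rab prenyltransferase, from 22.9 to 12.9 and 11.2 CPM (-0.92, SE 0.26, adjusted p = 0.0241).

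Of 14 genes of sterol storage, transport and efflux, 1 rose and 0 fell (median 0.04). It was Abcg1, a sterol exporter known as a target of LXR, the receptor that senses oxysterols. Abcg1 went from 11.0 CPM in the control library to 25.9 and 21.5 CPM (log2FC 1.12, SE 0.27, adjusted p = 0.00851), but was not called by DESeq2. Abca1 (0.35, SE 0.23) and Mylip (0.64, SE 0.23, adjusted p = 0.0797), also LXR targets, were not called. Of 14 tested genes of fatty acid supply and elongation outside the members, 0 were called in either direction and 1 had an unadjusted p under 0.05, beside 21.7% of all tested genes (median 0.17). The most abundant were Tecr (0.11, SE 0.23) and Elovl5 (0.00, SE 0.22). Of 18 genes of glycerolipid assembly, 1 fell and 0 rose (median -0.20): Chka, a choline kinase of phosphatidylcholine synthesis, from 60.5 to 18.0 and 18.6 CPM (-1.72, SE 0.22, adjusted p = 1.94e-05). In this list 6 genes had an unadjusted p under 0.05 (edgeR) in either direction, beside 21.7% of all tested genes. Its summed level was 75.8% of control with ShA and 90.5% with ShB.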

How the data were processed

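Polyadenylated RNA of 3 C2C12 libraries (1 control shRNA, 2 Tead4 shRNAs) was read as single-end 72-base reads, per the labels' protocols. Build mm9, DESeq, TopHat 1.0.12 and Cufflinks 0.8.2 appear in the submitters' processing notes without role or order. Which program counted the reads, and on which annotation, is not given in the sources used here. Per gene and library, the authors deposited a raw read count, which all tests used. The deposited normalized values are a score: each equals the raw count times 1 factor per library (1.00, 0.801 and 1.02), rounded. No value differed from that product by more than rounding.

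The test was edgeR 4.0.16 under R 4.3.3 (filterByExpr, TMM factors 0.979, 1.01 and 1.01, quasi-likelihood F test, Tead4 shRNA against control, Benjamini-Hochberg over 14478 genes, threshold 0.05). The fit has 1 residual and 20.9 prior degrees of freedom, and the lone control library is assumed to vary like the shRNA libraries. The SE of a log2 fold change is its size over the root of the F statistic. Library ratios carry 95% exact (Clopper-Pearson) counting intervals, which cover counting error only since each side is 1 library. They take reads as independent, which reads amplified by PCR are not, so they may be too narrow even for counting error. Alternatives were RLE, upper-quartile and total-count scaling, no filter, DESeq2 1.42.0, limma-voom (limma 3.58.1) and each shRNA alone. Of 20162 table identifiers, 18701 matched GENCODE vM21, used for lengths and overlaps only. Members, lists, motifs and the rule for named genes (all members, and per list up to 4 called genes or the 2 most abundant) were chosen with earlier results of these data known. Genes named with values outside that rule (Mbtps1, Mbtps2, Abca1, Mylip) were chosen after their values were seen.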

Additional observations from a re-analysis of the deposited data

How the results depend on the processing

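The count of sterol enzymes that fell was 13 and ranged from 11 (RLE and upper-quartile scaling) to 15 (no filter), with 0 higher under any of the 6 alternatives. For all members the count ranged from 13 to 18. No member changed direction with a call under any alternative or with either shRNA alone. The median of the sterol branch ranged from -0.99 to -0.94 under the 6 alternatives and from -1.14 to -0.89 with a single shRNA. The median of the fatty acid branch was -0.48, and -0.49 with RLE and with DESeq2, -0.44 with upper-quartile scaling and with total counts, -0.48 without the filter, -0.49 with limma-voom, and -0.45 to -0.44 with a single shRNA.

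Without the filter, 1 fatty acid gene, 2 genes of SREBP processing and 1 gene of sterol storage and efflux were called lower, and 1 gene of glycerolipid assembly was called higher, as it also was with total counts. DESeq2 called 0 isoprenoid genes lower, 0 sterol efflux genes higher, and over all genes 371 lower and 447 higher, against 649 and 773 with edgeR. The causes were not tested. With 1 shRNA left out no residual degree of freedom is left, so those values have no test and no counts of calls. No paired analysis was possible because the labels give no replicate numbers and there is 1 control library. All 31 members had at least 164 reads in every library, and with 1 residual against 20.9 prior degrees of freedom the SEs rest largely on a spread pooled over genes.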
